A study of Homo sapiens with 12 samples.

Results

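The glycolytic pathway and the targets of hypoxia-inducible factor (HIF) were followed through 37 genes, chosen by symbol: 2 glucose transporters, 16 enzymes from hexokinase to lactate dehydrogenase, 3 enzymes that set fructose 2,6-bisphosphate, 1 pyruvate dehydrogenase kinase, 2 HIF alpha subunits, 2 HIF prolyl hydroxylases, 2 mitophagy receptors, 2 collagen prolyl hydroxylases and 7 other HIF targets. All 37 symbols were among the 26485 counted, and 36 were among the 13619 with enough reads to test. CA9, the cell surface carbonic anhydrase used as a hypoxia marker, was not tested: it had 10 reads over the 3 DMSO libraries, 11 with TCDD, 6 with kynurenine and 7 with CH223191. Poly(A) RNA came from DLD1, an established human colon cancer cell line, after 1 h with the vehicle DMSO or with 10 µM of TCDD (a dioxin and strong agonist of the aryl hydrocarbon receptor, AHR), kynurenine (Kyn, a tryptophan metabolite that also activates AHR) or CH223191 (CH, a synthetic AHR antagonist). Each of the 4 groups had 3 libraries and a single dose and time, and the labels state no oxygen level and no agonist given together with the antagonist. The labels do not say that the libraries of a group are separate cultures. A p-value here sets a difference between groups against the spread among libraries of a group, and that spread may be only technical.

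HIF is a pair of an alpha subunit, HIF1A or EPAS1 (HIF2A), and ARNT, and the same ARNT pairs with ligand-bound AHR. The alpha subunits are made continuously, and with oxygen present the EGLN prolyl hydroxylases mark them for destruction through VHL, so that HIF activity is set mainly by protein stability and not by alpha subunit RNA. Under low oxygen the stabilised pair binds sites with the core ACGTG and raises glucose uptake, most glycolytic enzymes, PDK1, which holds pyruvate back from the mitochondria, and genes such as ANGPTL4, NDRG1 and BNIP3L. The AHR pair binds sites with the core GCGTG, which also occurs within HIF sites. The comparisons asked whether an AHR agonist or antagonist moved the genes of the other ARNT partner.

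Promoter sequence was read for the genes on which the results turn, since the cores ACGTG and GCGTG differ by 1 base. The stretches below are the parts of the 250 bases upstream of a RefSeq start (GRCh38.p14, an hg38 assembly) that no annotated exon covers, 5′ to 3′ on the gene's strand, with ACGTG or GCGTG on either strand in capitals. They are shown for SLC2A1 and HIF1A, the members that stood out with the agonists, ANGPTL4, the member with the largest change with CH223191, and LDHA and PGK1, textbook HIF targets, of which, against DMSO, LDHA changed with CH223191 and PGK1 with no compound.
SLC2A1 chr1:42958894-42959048 (- strand): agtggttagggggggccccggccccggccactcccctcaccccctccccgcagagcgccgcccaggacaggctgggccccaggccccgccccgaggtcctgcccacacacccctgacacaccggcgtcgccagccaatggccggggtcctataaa
HIF1A chr14:61695263-61695512 (+ strand): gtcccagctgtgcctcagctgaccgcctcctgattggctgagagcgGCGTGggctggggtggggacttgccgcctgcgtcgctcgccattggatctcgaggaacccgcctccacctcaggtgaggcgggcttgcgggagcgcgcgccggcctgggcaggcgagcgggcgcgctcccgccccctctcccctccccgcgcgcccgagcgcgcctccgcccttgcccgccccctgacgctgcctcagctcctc
ANGPTL4 chr19:8363905-8364154 (+ strand): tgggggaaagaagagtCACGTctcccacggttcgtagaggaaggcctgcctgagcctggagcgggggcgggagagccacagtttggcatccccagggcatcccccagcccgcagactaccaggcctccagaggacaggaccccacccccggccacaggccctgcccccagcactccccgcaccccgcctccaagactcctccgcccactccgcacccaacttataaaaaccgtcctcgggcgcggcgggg
LDHA chr11:18394313-18394559 (+ strand): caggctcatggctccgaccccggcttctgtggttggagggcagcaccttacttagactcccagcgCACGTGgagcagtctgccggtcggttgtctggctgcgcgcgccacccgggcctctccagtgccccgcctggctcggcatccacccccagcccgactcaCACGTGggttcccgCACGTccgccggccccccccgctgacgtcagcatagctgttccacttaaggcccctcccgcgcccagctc
PGK1 chrX:78103998-78104247 (+ strand): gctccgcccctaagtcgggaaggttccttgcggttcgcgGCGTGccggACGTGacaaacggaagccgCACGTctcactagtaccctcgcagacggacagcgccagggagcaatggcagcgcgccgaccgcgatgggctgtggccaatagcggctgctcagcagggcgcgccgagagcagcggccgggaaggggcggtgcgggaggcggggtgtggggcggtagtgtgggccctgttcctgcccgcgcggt
The SLC2A1 stretch held neither core, HIF1A held 1 GCGTG, ANGPTL4 held 1 ACGTG, and PGK1 held 2 ACGTG and 1 GCGTG. LDHA held 5 ACGTG matches over both strands, where CACGTG reads the same on each strand and counts on both. Of the 33 members with a promoter in the RefSeq table, 20 (60.6%) had ACGTG in the 250 upstream bases of at least 1 start, against 21.7% of 27195 genes in the table. GCGTG was found for 16 of the 33 (48.5%) against 36.3% of all, and the longer AHR form TNGCGTG for 1 (3.03%), ENO1, against 5.55%. Either core, since both occur in HIF sites, was found for 28 (84.8%) against 47.4%. ACGTG was thus more frequent than GCGTG upstream of these genes, as a description of letters in a short window. A gene with more starts has more windows for a match. The 33 members had 57 starts, and the starts per gene of the whole table are not given here. The members were also chosen in part as HIF targets.

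Counted reads ranged from 21397703 to 28247146 per library, of which the 37 genes took 1.597 to 1.722%. Summed colon epithelial markers lay at 8995 to 10032 CPM (reads of a gene relative to the scaled library total, the usual CPM scale) in the 12 libraries, against 0.480 to 1.26 CPM for fibroblast, 9.73 to 20.2 for immune and 1.70 to 3.15 for endothelial markers. CYP1A1, the classical AHR target, gave a log2 fold change against DMSO of 7.05 with TCDD, 1.65 with kynurenine and -2.67 with CH223191 (edgeR quasi-likelihood F test, Benjamini-Hochberg adjusted p = 5.47e-42, 8.96e-14 and 9.04e-13). The other AHR targets checked, CYP1B1, AHRR and TIPARP, rose with TCDD (log2 fold changes from 1.72 for TIPARP to 2.36 for CYP1B1) and fell with CH223191 (-1.33, -1.34 and -0.40). With kynurenine CYP1B1 (-0.37, adjusted p = 2.44e-07) and TIPARP (-0.21, 0.0272) fell and AHRR gave -0.28 (0.553), so CYP1A1 was the 1 target of these 4 that rose. The variance between libraries of a group was 1.759 to 4.637 times that of counting alone.

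In vehicle glycolytic enzymes led the list. Per length, on the RPKM scale (CPM divided by transcript length), the DMSO libraries held GAPDH at 3552 ± 100.4 (SD, n = 3), PKM (pyruvate kinase) at 1405 ± 22.2, ENO1 (enolase) at 1402 ± 43.8, ALDOA (aldolase) at 726 ± 25.3, TPI1 at 608 ± 21.5 and LDHA at 529.8 ± 10.8. In several families of paralogs 1 form led by far. SLC2A1 (GLUT1) stood at 203 ± 8.79 RPKM against 4.41 ± 0.149 for SLC2A3 (GLUT3), ENO1 far above ENO2 at 4.45 ± 0.186, and ALDOA far above ALDOC at 0.322 ± 0.0438. The gap was narrower for the hexokinases, with HK1 at 38.9 ± 0.269 and HK2 at 24.3 ± 0.709, and for the liver and platelet phosphofructokinases, with PFKL at 71.4 ± 1.52 and PFKP at 61.8 ± 1.56. Of the alpha subunits and their hydroxylases, HIF1A lay at 30.7 ± 1.69 and EPAS1 at 5.39 ± 0.461 RPKM, and EGLN1 at 17.997 ± 0.319 against 2.44 ± 0.0791 for the hypoxia-induced EGLN3. Several targets known for strong induction under low oxygen were low here: NDRG1 stood at 2.96 ± 0.0562, ANGPTL4 at 2.31 ± 0.198, PDK1 at 1.31 ± 0.0561 and BNIP3 at 0.254 ± 0.114 RPKM. HIF targets were not low as a group. Beside SLC2A1, the DMSO libraries held P4HA1 at 30.4 to 31.4, BNIP3L at 12.4 to 13.4 and ADM at 6.88 to 7.44 RPKM. Before division by length, PDK1 stood at 17.7 to 19.2 CPM, above NDRG1 (8.77 to 9.10) and ANGPTL4 (3.90 to 4.62). Its place below them in RPKM rests on the transcript length used. ALDOC had 11 to 17 reads per library and BNIP3 3 to 16, too few to weigh.

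**Figure D1:**
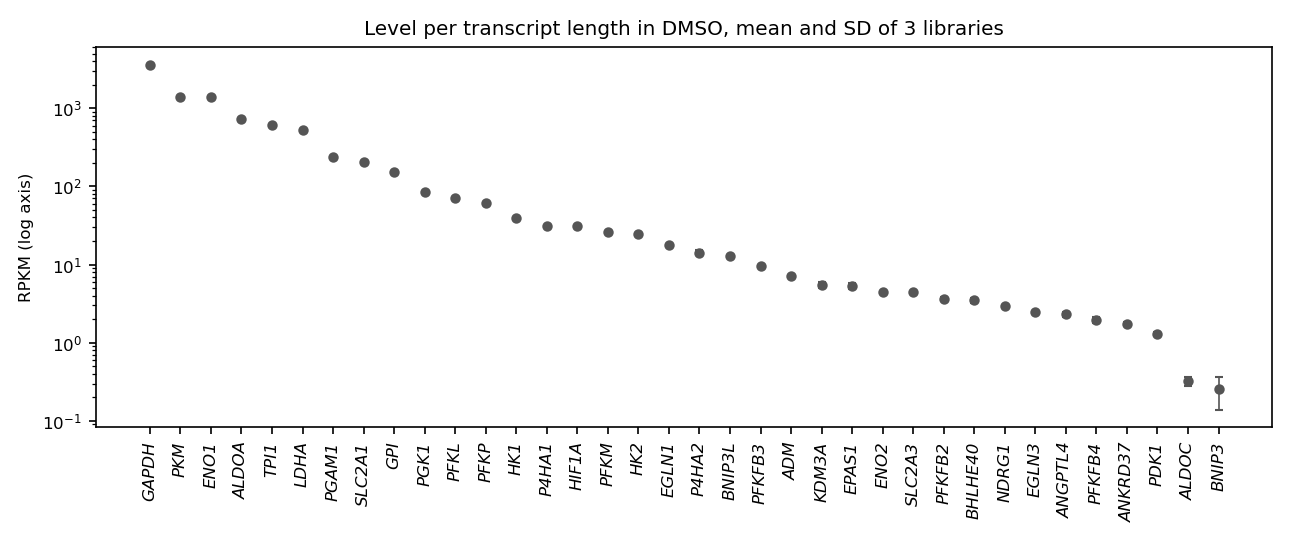
Level of each tested gene per length in the 3 DMSO libraries, in RPKM on a log axis, as mean and SD, ordered from high to low. GAPDH stands highest at 3552 ± 100.4 and BNIP3 lowest at 0.254 ± 0.114 RPKM.

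Against DMSO, TCDD changed 7 of the 36 tested members, kynurenine 1 and CH223191 16 (adjusted p under 0.05 over all genes). With TCDD, HIF1A rose and SLC2A3, GPI, PFKL, PFKP, ALDOA and ENO1 fell, which is 19.4% of the members beside 11.7% of all tested genes. With kynurenine SLC2A1 alone fell, 2.78% of the members beside 0.294% of all genes, a share that rests on 1 gene. With CH223191, 7 rose (PDK1, EPAS1, BNIP3L, NDRG1, KDM3A, ANGPTL4 and BHLHE40) and 9 fell (SLC2A1, SLC2A3, PGAM1, ENO1, LDHA, PFKFB3, P4HA1, P4HA2 and ADM), 44.4% beside 32.8%. The members' median absolute log2 fold change was 0.094 with TCDD, 0.0245 with kynurenine and 0.1146 with CH223191. That of all tested genes was 0.0837, 0.0471 and 0.1242. With signs kept, so that rises and falls offset, the members' median was -0.05 with TCDD, 0.0031 with kynurenine and -0.02 with CH223191. With library totals alone the value for CH223191 was 0.0096. The signed median of all tested genes was 9e-04, -0.003 and 0.001. Of the members, 21 changed with at least 1 compound and 15 with none. With TCDD and with CH223191 members changed in both directions. The 3 comparisons share the DMSO libraries, so their values for a gene are set side by side and not counted as separate evidence.

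**Figure D2:**
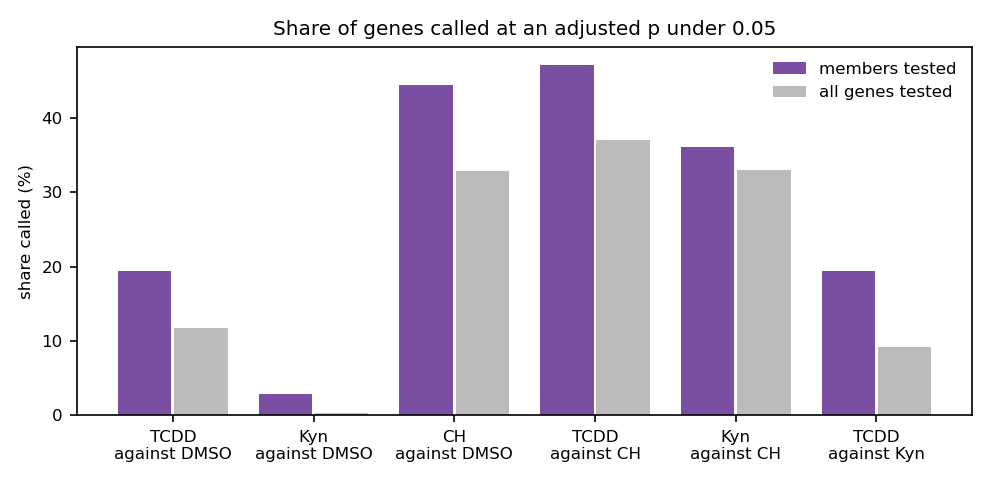
Percent of tested genes past an adjusted p of 0.05 in each of the 6 comparisons, for the members and for all 13619 genes. Members stand at 19.4% beside 11.7% with TCDD, 2.78% beside 0.294% with kynurenine and 44.4% beside 32.8% with CH223191.

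SLC2A1, by RNA the more abundant of the 2 glucose transporters followed, fell with kynurenine and with CH223191 and not with TCDD. SLC2A1 stood at 719.9, 664 and 674 CPM in DMSO, 728, 719 and 686 with TCDD, 545, 570.5 and 580.2 with kynurenine and 604, 580.2 and 542 with CH223191. The 3 kynurenine and the 3 CH223191 libraries all lay below the lowest DMSO library, and the TCDD libraries overlapped DMSO. With kynurenine SLC2A1 fell by 17.59% (log2 fold change -0.28, SE 0.0373, adjusted p = 1.43e-05; 95% interval -0.35 to -0.20), with CH223191 it fell by 16.11% (log2 fold change -0.25, SE 0.0373, adjusted p = 1.73e-06), and with TCDD the log2 fold change was 0.05 (95% interval -0.02 to 0.13, adjusted p = 0.414). Compared directly, SLC2A1 was higher with TCDD than with kynurenine (log2 fold change 0.33, SE 0.0374, adjusted p = 4.94e-08), so the 2 agonists differed, while kynurenine and CH223191 differed by -0.03 (95% interval -0.10 to 0.05). SLC2A1 lies at chr1:42925353-42958893 (hg38, minus strand). The fall with kynurenine passed the test in each of 20 alternative settings, with log2 fold changes from -0.30 to -0.24. It was picked out from an earlier pass over these same libraries and is no independent finding.

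SLC2A3, the high-affinity transporter present at a low level, fell with TCDD and more with CH223191. SLC2A3 stood at 17.5, 16.6 and 16.5 CPM in DMSO, 14.6, 12.8 and 14.9 with TCDD, 15.8, 17.9 and 17.6 with kynurenine and 10.97, 9.49 and 10.1 with CH223191. No CH223191 library reached any other library, and the highest TCDD library lay below the lowest DMSO library. The log2 fold change was -0.26 with TCDD (SE 0.0754, adjusted p = 0.0204) and -0.73 with CH223191 (SE 0.0784, adjusted p = 3.74e-09), and the compounds themselves differed (TCDD against CH223191 0.47, adjusted p = 2.16e-05). With kynurenine it was 0.02 (adjusted p = 0.997). The TCDD call was lost without DMSO replicate 1 or TCDD replicate 2, with an adjusted p of up to 0.122.

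The alpha subunits moved apart. HIF1A lies at chr14:61695513-61748259 (hg38, plus strand). HIF1A stood at 114, 127 and 123 CPM in DMSO, 141, 134 and 139.7 with TCDD, 117, 126 and 122 with kynurenine and 122, 123 and 116 with CH223191. All TCDD libraries were above all others, and HIF1A RNA rose by 14.02% with TCDD (log2 fold change 0.19, SE 0.0402, adjusted p = 0.00142; 95% interval 0.11 to 0.27), with no change called for kynurenine (adjusted p = 0.998) or CH223191 (0.877). EPAS1, the alpha subunit better known from endothelium and kidney tumours, rose with CH223191. EPAS1 stood at 25.3, 30.003 and 28.1 CPM in DMSO, 25.3, 24.6 and 24.2 with TCDD, 26.7, 27.5 and 28.03 with kynurenine and 33.8, 30.6 and 32.01 with CH223191. The CH223191 libraries lay above the DMSO libraries (log2 fold change 0.21, SE 0.0565, adjusted p = 0.00418), a call lost without DMSO replicate 1 (adjusted p = 0.0642), and with TCDD the log2 fold change was -0.17 (adjusted p = 0.0522). Between TCDD and CH223191 the subunits differed in opposite directions, HIF1A by 0.20 on the log2 scale (adjusted p = 0.00017) and EPAS1 by -0.38 (adjusted p = 2.67e-06). Neither prolyl hydroxylase was called against DMSO: EGLN1 gave a log2 fold change of 0.05 and EGLN3 -0.01 with CH223191. EGLN3 gave -0.24 with TCDD (adjusted p = 0.163), where its 4.96, 5.80 and 6.08 CPM lay below the 6.75, 6.36 and 6.72 of DMSO. ARNT itself gave log2 fold changes of -0.01 with TCDD, 0.02 with kynurenine and 0.15 with CH223191, where the adjusted p of 0.0193 rose to 0.128 at most when DMSO replicate 1 or CH223191 replicate 1 was left out. AHR RNA gave log2 fold changes of -0.10, -0.01 and -0.01 (adjusted p = 0.105, 0.992 and 0.848).

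**Figure D3:**
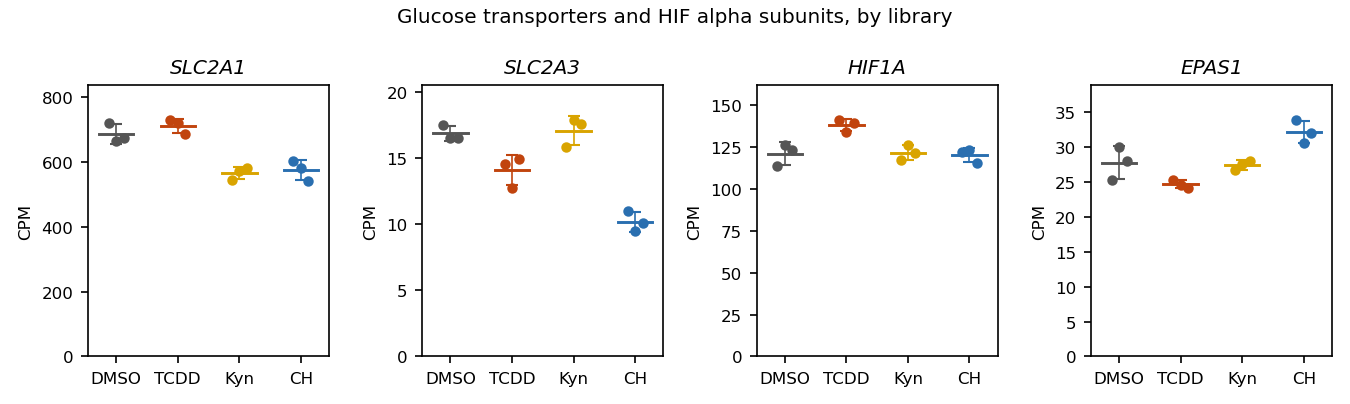
CPM of SLC2A1, SLC2A3, HIF1A and EPAS1 in each of the 12 libraries by group, with the group mean and SD. SLC2A1 is lower with kynurenine and CH223191, SLC2A3 lowest with CH223191, HIF1A highest with TCDD and EPAS1 highest with CH223191.

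The glycolytic enzymes leaned down with TCDD by small amounts. Of 16, 5 fell (31.2%, beside 11.7% of all tested genes; 2 without TCDD replicate 3) and none rose: GPI, which turns glucose 6-phosphate into fructose 6-phosphate, the phosphofructokinases PFKL and PFKP, which commit sugar to glycolysis, ALDOA and ENO1. GPI stood at 636, 624 and 617 CPM in DMSO, 588, 542 and 549.8 with TCDD, 642, 601 and 616 with kynurenine and 603, 609.8 and 599 with CH223191. ENO1 stood at 2563, 2412 and 2517 CPM in DMSO, 2314, 2264 and 2235 with TCDD, 2497, 2416 and 2434 with kynurenine and 2352, 2352 and 2379.9 with CH223191. For both, all TCDD libraries lay below all DMSO libraries (GPI log2 fold change -0.16, SE 0.0336, adjusted p = 0.00121; ENO1 log2 fold change -0.14, SE 0.0302, adjusted p = 0.00201), and both calls held in all 20 alternatives. ALDOA stood at 1234, 1152 and 1185 CPM in DMSO, 1121, 1080.01 and 1068 with TCDD, 1227, 1177 and 1172 with kynurenine and 1133, 1156 and 1147 with CH223191. PFKL stood at 212, 203 and 208 CPM in DMSO, 184, 197 and 185 with TCDD, 209, 195 and 204 with kynurenine and 207, 204 and 209 with CH223191. PFKP stood at 167, 159 and 161 CPM in DMSO, 146, 155 and 149 with TCDD, 161, 158 and 159.7 with kynurenine and 159, 162 and 149.6 with CH223191. For these 3 enzymes too, every TCDD library lay below every DMSO library. That also held for HK1, PKM and LDHA, which were not called (adjusted p = 0.173, 0.139 and 0.265). HK2, also not called (0.108), lay above DMSO in every TCDD library. The share of all tested genes without overlap is not given here. Such separation, for other members as well, therefore only describes the libraries. The log2 fold change with TCDD was -0.13 for ALDOA (adjusted p = 0.00663), -0.14 for PFKL (0.00773) and -0.11 for PFKP (0.0324). These 3 calls depended on single libraries: ALDOA was lost without DMSO 1 or TCDD 3 (adjusted p up to 0.0715), PFKL without TCDD 1 or 3 (up to 0.217), and PFKP without DMSO 1 or 3 or TCDD 1 or 3 (up to 0.167), and removing GC content and length trends ended the PFKL and PFKP calls. Over the 16 enzymes the median log2 fold change with TCDD was -0.06, with 14 negative. With CH223191 it was -0.05, with 12 negative (-0.03 and 9 with library totals alone), and with kynurenine 7e-04, with 8 negative and none called by edgeR or DESeq2 (0 at an unadjusted p under 0.05). GPI, ALDOA and ENO1 were also lower with TCDD than with kynurenine, a comparison that shares the TCDD libraries with the one above (log2 fold changes -0.15, -0.13 and -0.11, adjusted p = 0.00348, 0.00701 and 0.0175), of which GPI held in all alternatives. ALDOA was lost there without TCDD 3 (adjusted p = 0.0681), and ENO1 without TCDD 3 or Kyn 1 and with GC content and length trends removed (up to 0.121).

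With CH223191 3 of the 16 enzymes fell: PGAM1 (phosphoglycerate mutase), LDHA, which turns pyruvate into lactate, and ENO1. In the main fit this was 18.8% beside 32.8% of all tested genes, so no larger share than among genes at large. The share depended on the setting: with GC content and length trends removed, 6 of the 16 were called, and 4823 genes in all. PGAM1 stood at 449, 423 and 431 CPM in DMSO, 430.4, 415 and 407 with TCDD, 421, 419 and 427 with kynurenine and 392, 401 and 392 with CH223191. LDHA stood at 1204, 1159.8 and 1198 CPM in DMSO, 1159.5, 1111 and 1158 with TCDD, 1209, 1181 and 1171 with kynurenine and 1085, 1117 and 1098 with CH223191. The CH223191 libraries lay below every DMSO library for both (PGAM1 log2 fold change -0.14, SE 0.0324, adjusted p = 0.00121; LDHA log2 fold change -0.11, SE 0.0306, adjusted p = 0.0053). ENO1 gave a log2 fold change of -0.08 (adjusted p = 0.0368), a call lost in 10 of the 20 alternatives, among them leaving out DMSO 1 or 3, TCDD 3, Kyn 3 or any CH223191 library (adjusted p up to 0.165). In the main fit HK1, HK2, PFKM, TPI1, GAPDH, PGK1, ENO2, PKM and ALDOC were not called against DMSO with any compound. HK2, the hexokinase typical of tumours, was higher with TCDD than with CH223191 (log2 fold change 0.17, adjusted p = 0.00036) and than with kynurenine (0.13, adjusted p = 0.0234), the latter call being lost without TCDD 3 or Kyn 1 or 2 (up to 0.202).

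**Figure D4:**
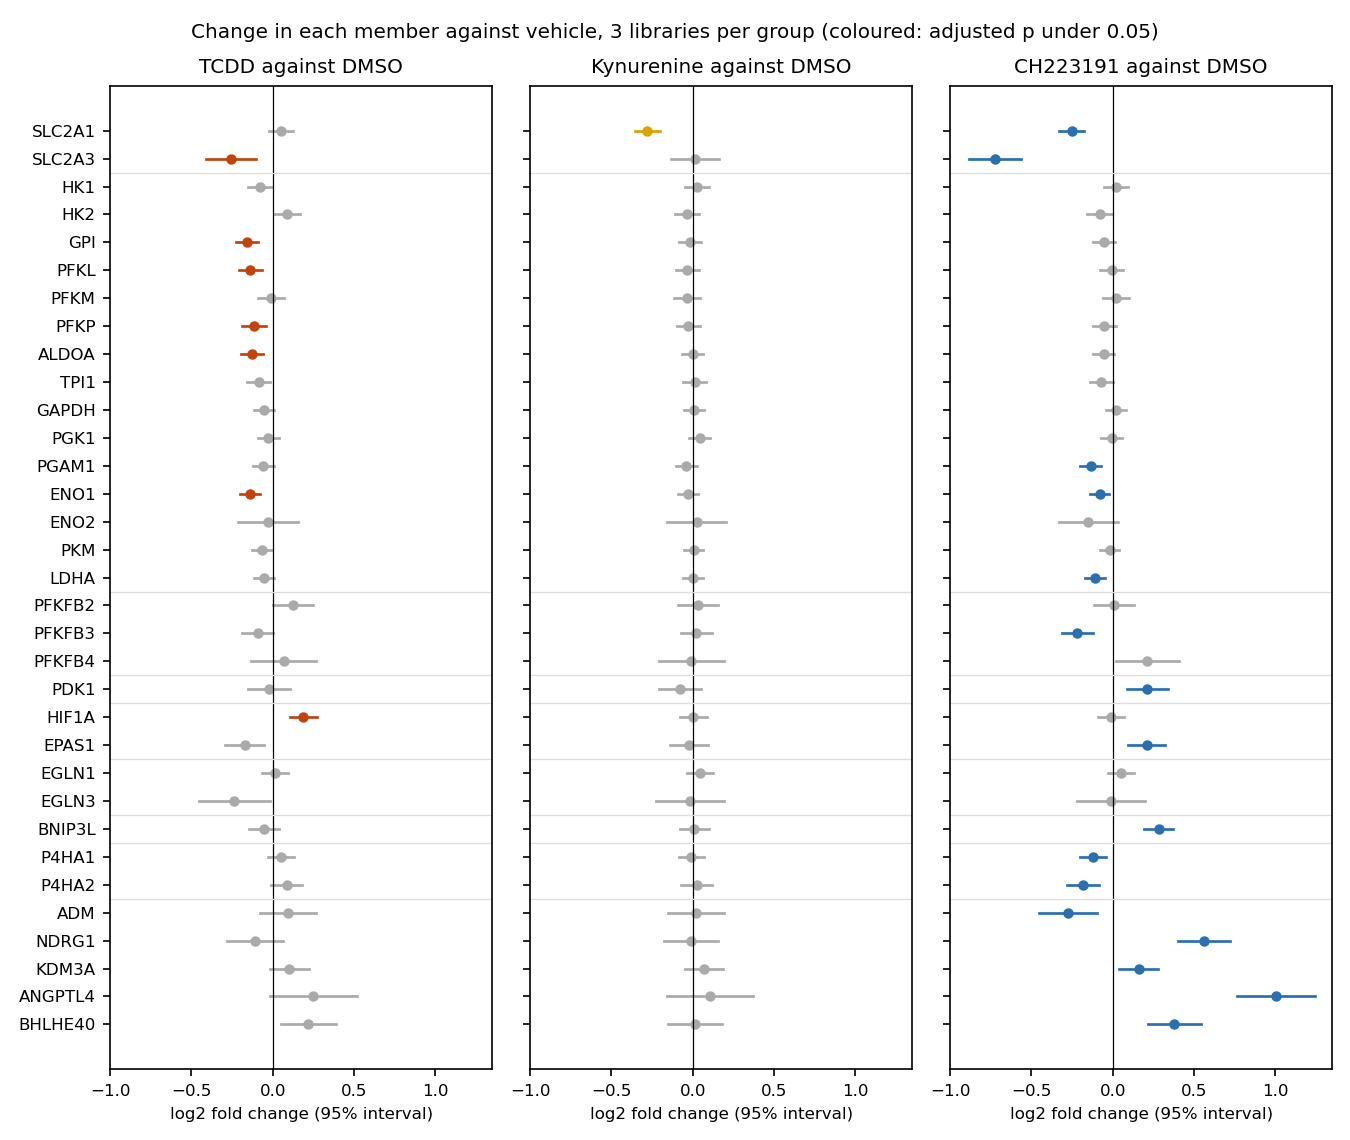
Log2 fold change against DMSO with its 95% interval for the tested members, by compound, coloured where adjusted p is under 0.05 and without ALDOC, BNIP3 and ANKRD37, which were under 2 CPM. ANGPTL4 and NDRG1 stand farthest above 0 and SLC2A3 farthest below with CH223191.

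With CH223191 1 of the 3 fructose 2,6-bisphosphate enzymes was called (33.3% beside 32.8% of all tested genes, a share at the background). The pyruvate dehydrogenase kinase PDK1 was called too. PFKFB3 makes fructose 2,6-bisphosphate, the activator of phosphofructokinase. PFKFB3 stood at 42.2, 43.8 and 44.7 CPM in DMSO, 40.2, 43.5 and 39.1 with TCDD, 44.2, 44.99 and 43.5 with kynurenine and 38.6, 37.5 and 36.2 with CH223191. It fell, with all CH223191 libraries below all DMSO libraries (log2 fold change -0.22, SE 0.0480, adjusted p = 0.00056), while PFKFB4 gave a log2 fold change of 0.21 (adjusted p = 0.0871) and PFKFB2 0.01 (0.948). PDK1 stood at 17.7, 18.4 and 19.2 CPM in DMSO, 17.5, 18.1 and 18.8 with TCDD, 16.6, 17.8 and 17.9 with kynurenine and 21.4, 22.3 and 20.2 with CH223191. PDK1 rose, again without overlap with DMSO (log2 fold change 0.21, SE 0.0616, adjusted p = 0.00723), though not without CH223191 replicate 2 (adjusted p = 0.0551). No TCDD or kynurenine call was made for these 4 genes.

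HIF targets outside glycolysis split with CH223191, and the largest changes were rises. ANGPTL4, a secreted inhibitor of lipoprotein lipase, rose 2.009-fold from a low level. ANGPTL4 stood at 4.42, 3.90 and 4.62 CPM in DMSO, 5.33, 4.58 and 5.46 with TCDD, 3.56, 5.27 and 5.17 with kynurenine and 9.25, 8.56 and 8.14 with CH223191. The lowest CH223191 library was above the highest of the other 9 (log2 fold change 1.01, SE 0.119, adjusted p = 2.52e-08; 95% interval 0.77 to 1.25). NDRG1, a stress-responsive gene of differentiation, rose next. NDRG1 stood at 8.77, 9.001 and 9.10 CPM in DMSO, 8.38, 8.55 and 8.01 with TCDD, 9.12, 9.12 and 8.44 with kynurenine and 13.3, 13.02 and 13.4 with CH223191. Its CH223191 libraries again stood above all others (log2 fold change 0.56, SE 0.0782, adjusted p = 6.21e-07). BHLHE40 (DEC1), a transcriptional repressor of the clock, and BNIP3L (NIX), a mitophagy receptor, rose too. BHLHE40 stood at 11.8, 10.9 and 10.3 CPM in DMSO, 12.3, 13.96 and 12.2 with TCDD, 11.9, 11.4 and 9.98 with kynurenine and 13.9, 14.8 and 14.2 with CH223191. BNIP3L stood at 46.2, 42.7 and 43.8 CPM in DMSO, 43.1, 42.4 and 42.6 with TCDD, 44.3, 44.99 and 44.2 with kynurenine and 53.2, 53.8 and 54.5 with CH223191. Both rises ran without overlap with DMSO (BHLHE40 log2 fold change 0.38, SE 0.0805, adjusted p = 0.00037; BNIP3L log2 fold change 0.28, SE 0.0434, adjusted p = 3.64e-06). KDM3A, a histone demethylase, rose by 0.16 on the log2 scale (adjusted p = 0.0321), a call lost without DMSO 1 or CH223191 1 or 2 and with DESeq2 (adjusted p up to 0.265). KDM3A stood at 23.1, 27.1 and 26.5 CPM in DMSO, 27.4, 26.8 and 28.2 with TCDD, 27.7, 27.4 and 25.2 with kynurenine and 28.6, 29.5 and 27.5 with CH223191. Its CH223191 libraries lay above DMSO and overlapped those with TCDD and those with kynurenine.

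The collagen prolyl hydroxylases and ADM fell with CH223191, so the HIF targets did not move as a block. P4HA1 stood at 86.2, 83.4 and 84.5 CPM in DMSO, 89.4, 86.6 and 87.4 with TCDD, 83.1, 83.1 and 86.4 with kynurenine and 76.4, 80.96 and 76.4 with CH223191. P4HA2 stood at 65.7, 59.9 and 68.3 CPM in DMSO, 71.01, 69.4 and 65.3 with TCDD, 68.02, 63.2 and 65.9 with kynurenine and 56.02, 59.3 and 55.3 with CH223191. Both enzymes, which hydroxylate collagen in the endoplasmic reticulum, lay below DMSO in all CH223191 libraries (P4HA1 log2 fold change -0.12, SE 0.0388, adjusted p = 0.0166; P4HA2 log2 fold change -0.18, SE 0.0477, adjusted p = 0.00311). ADM encodes the vasodilator peptide adrenomedullin. ADM stood at 11.1, 10.3 and 10.6 CPM in DMSO, 10.5, 12.04 and 11.6 with TCDD, 11.3, 10.1 and 10.99 with kynurenine and 9.71, 7.99 and 8.65 with CH223191. It fell by 0.28 on the log2 scale (adjusted p = 0.0147). The P4HA1 call was lost without DMSO 1 or CH223191 1 or 3 and with library totals alone (adjusted p up to 0.0769) and the ADM call without DMSO 1 or CH223191 2 (up to 0.123). ANKRD37 and BNIP3 were not called and had few reads.

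**Figure D5:**
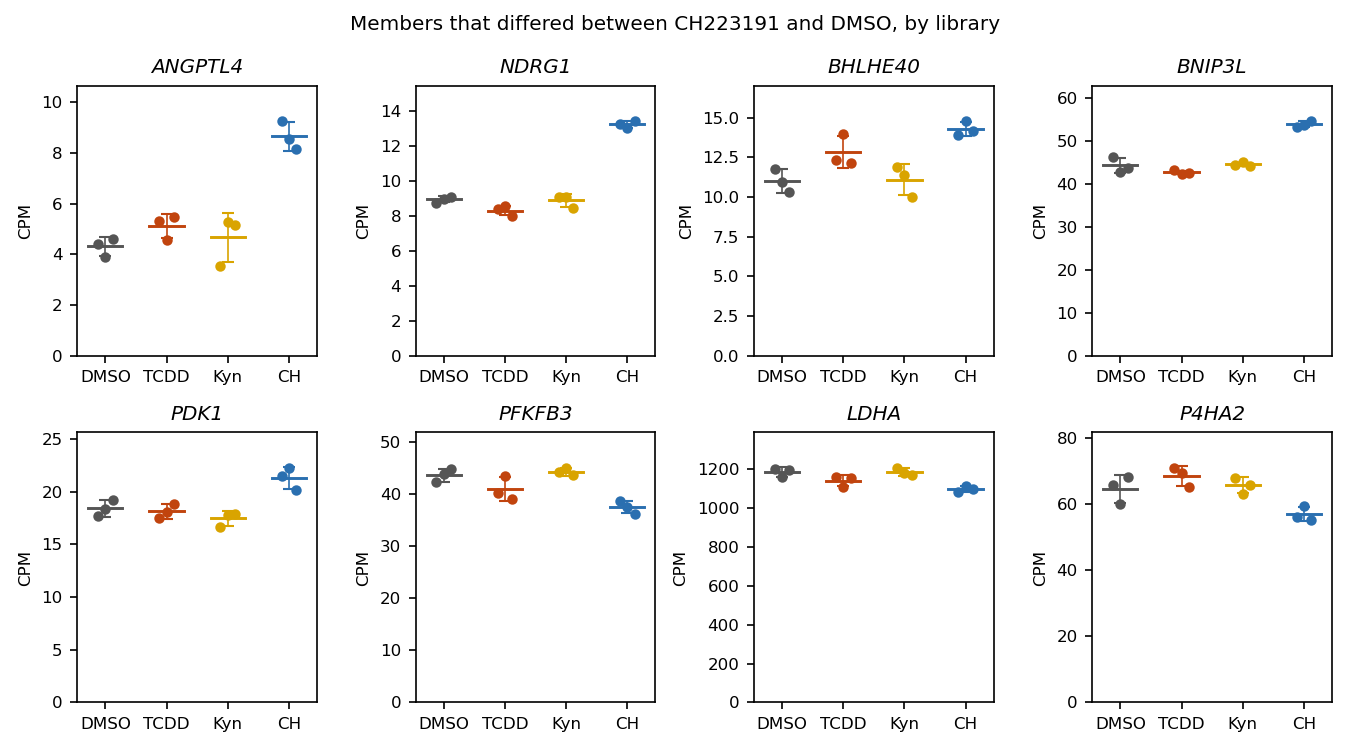
CPM in each of the 12 libraries, by group, of 8 members that changed with CH223191, with the group mean and SD. In the 3 CH223191 libraries ANGPTL4, NDRG1, BHLHE40, BNIP3L and PDK1 lie above every DMSO library and PFKFB3, LDHA and P4HA2 below.

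Between compounds, 17 members differed between TCDD and CH223191 (47.2% beside 37.1% of all genes), 13 between kynurenine and CH223191 (36.1% beside 33%) and 7 between TCDD and kynurenine (19.4% beside 9.19%). Most members that rose with CH223191 against DMSO were also called between CH223191 and the agonists. These comparisons share the CH223191 libraries with the one against DMSO and are not separate evidence. ANGPTL4 was lower with TCDD by 0.76 and with kynurenine by 0.90 on the log2 scale (log2 fold changes -0.76 and -0.90, adjusted p = 3.43e-06 and 2.04e-07), and NDRG1 gave log2 fold changes of -0.67 and -0.57 (adjusted p = 2.66e-08 and 5.1e-07). BHLHE40 differed from CH223191 with kynurenine (log2 fold change -0.36, adjusted p = 0.000564) and was not called with TCDD (-0.16, adjusted p = 0.12). KDM3A was called against CH223191 with neither agonist (log2 fold change -0.06 with TCDD, adjusted p = 0.479, and -0.09 with kynurenine, adjusted p = 0.233). Of the 35 members not called with kynurenine against DMSO, the 31 at 5 CPM or more had 95% intervals between -0.23 (EGLN3) and 0.20 (ENO2) on the log2 scale.

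Among other genes of the same pathways calls also went in both directions. Of 42 tested genes listed for glucose and pyruvate use, 1 rose and 7 fell with TCDD (19% beside 11.7% of all tested genes). With kynurenine 0 were called (3 at an unadjusted p under 0.05, 0 by DESeq2). With CH223191 5 rose and 8 fell (31% beside 32.8%, a share at the background). The pyruvate dehydrogenase phosphatase PDP1, which opposes PDK1, rose with TCDD (log2 fold change 0.34, adjusted p = 3.07e-08) and fell with CH223191 (-0.60, adjusted p = 8.47e-15). PDP1 stood at 94.6, 96.7 and 91.005 CPM in DMSO, 117, 117 and 123 with TCDD, 84.6, 84.2 and 84.9 with kynurenine and 62.4, 61.6 and 61.7 with CH223191. The lactate carriers SLC16A1 (log2 fold change -0.23, adjusted p = 4.85e-06) and SLC16A3 (-0.22, 0.00176) fell with TCDD. With CH223191 the mitochondrial PEP carboxykinase PCK2 (log2 fold change 1.41, adjusted p = 7.11e-26) and the pyruvate dehydrogenase kinase PDK4 (1.06, 1.33e-07) rose. The phosphatase PGAM5 (-0.24, 1.19e-06) fell. It is counted in the list of 42, although it is a protein phosphatase and not itself a step of glucose or pyruvate use. Of 18 tested HIF regulators, 3 rose with TCDD (EP300, USP33 and ARNTL; 16.7% beside 11.7%), 0 were called with kynurenine (1 unadjusted, 0 by DESeq2), and 5 rose and 3 fell with CH223191 (44.4% beside 32.8%), with VHL (log2 fold change 0.26, adjusted p = 0.000261) and ARNT2 (0.22, 0.00091) among the rises and PASK (-0.35, 0.000128) and CITED2 (-0.14, 0.0073) among the falls. The coactivator EP300 rose by 0.24 on the log2 scale with TCDD (adjusted p = 0.000346). USP33 (log2 fold change 0.16, adjusted p = 0.0258) was lost without DMSO 1 or 3 or TCDD 2 or 3 (up to 0.261) and ARNTL (0.16, 0.0454) in 9 of the 12 settings that leave out a library (up to 0.183).

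Of 38 other tested HIF targets, 4 rose and 2 fell with TCDD (15.8% beside 11.7% of all tested genes), 0 were called with kynurenine (3 at an unadjusted p under 0.05, 0 by DESeq2), and 11 rose and 7 fell with CH223191 (47.4% beside 32.8%). DDIT4 (REDD1), an inhibitor of mTORC1, rose most. DDIT4 stood at 52.2, 50.1 and 52.2 CPM in DMSO, 75.8, 80.5 and 75.4 with TCDD, 59.5, 53.9 and 54.3 with kynurenine and 282, 266 and 262 with CH223191. Its libraries rose without overlap with both TCDD (log2 fold change 0.58, SE 0.0450, adjusted p = 4.73e-12) and CH223191 (log2 fold change 2.39, SE 0.0421, adjusted p = 6.95e-32). VEGFA, the vascular growth factor, moved in opposite directions: VEGFA stood at 58.3, 58.6 and 58.2 CPM in DMSO, 52.8, 54.3 and 51.4 with TCDD, 60.4, 57.5 and 57.6 with kynurenine and 125, 121 and 119 with CH223191. It rose with CH223191 (log2 fold change 1.06, SE 0.0389, adjusted p = 3.24e-22) and fell with TCDD (log2 fold change -0.14, SE 0.0420, adjusted p = 0.0204), the latter call being lost without DMSO 1 or 3 or TCDD 1 or 3. VLDLR, a lipoprotein receptor, rose with CH223191 (log2 fold change 2.06, adjusted p = 1.09e-19) and JMJD6, a hydroxylase, fell (-0.57, 1.87e-11). With TCDD, ERRFI1 (log2 fold change 0.24, adjusted p = 6.95e-06) and the nuclear receptor RORA (0.20, 0.00178) also rose, RORA not once GC content and length trends were removed (adjusted p = 0.215). DDIT4, VEGFA, VLDLR, PCK2 and NDRG1 are known as targets of the stress factor ATF4 as well, and ANGPTL4 and PDK4 as targets of PPAR receptors. Which factor stood behind any of these changes was not tested, and these libraries hold no measure of HIF protein.

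Reads of overlapping genes could not always be assigned, since whether strand was used in counting is not given in the sources used here. PFKFB2 (8203 reads in all) overlaps YOD1 (12385) and ANKRD37 (366) overlaps UFSP2 (8926) on the opposite strand, and CA9 (34) overlaps ARHGEF39 (6521) in the same way, so their counts are uncertain, the low count of CA9 included. PFKM (24716) overlaps SENP1 (8793) on the opposite strand and PGK1 (124910) overlaps ATP7A (9553) on the same one, whereas HIF1A (38827) overlaps an antisense gene of 15 reads. GAPDH, ENO1, LDHA, PGAM1, PKM and other abundant enzymes have processed pseudogenes that can share reads with them.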

How the data were processed

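Poly(A) RNA-seq of 12 DLD1 libraries, 3 in each of 4 groups, was used as raw counts of reads per gene symbol, deposited by the authors. The submitters' processing notes name Trim Galore, STAR 2.7.2b, SAMtools 1.9, HTSeq and hg38. The labels' extract protocol instead names other versions in part and does not mention CH223191, and neither gives a strand setting. Rows that HTSeq reports for reads in no gene held 6.59 to 8.478% of reads and multiply aligned ones 2.633 to 3.911%, and they were left out.

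Counts were fitted in R 4.3.3 with edgeR 4.0.16: filterByExpr (minimum count 10), TMM scaling (factors 0.9884 to 1.0162), 1 coefficient per group over all libraries, the quasi-likelihood F test for 6 contrasts, and Benjamini-Hochberg adjustment over 13619 genes with a call at an adjusted p under 0.05. RPKM used the Ensembl canonical transcript lengths of GENCODE 44. Intervals are 95% from the fit. Precision is limited by 3 libraries a group, with a common biological coefficient of variation of 3.22%. Promoters came from RefSeq (GRCh38.p14, 33 of 37 members matched), and 57 promoters of members were read. Full library values are given for members called against DMSO, and up to 4 called genes of smallest p from each other list, of which 1 is not reported here.

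The members, the lists and the naming rule were chosen with earlier results of these data known. The procedure was tested on simulated data. Alternatives tried were DESeq2 1.42.0, a fit with a replicate block, RLE or no scaling factors, a low-count filter either absent or set at 5 CPM in 3 libraries, a fit to the compared groups alone, omission of every library in turn, and removal of GC content and length trends, chosen after seeing the data. Same-numbered libraries did not deviate together across all groups (r from -0.2232 to 0.3226 over 18 pairs, against -0.2759 to 0.2744 over 36 others). Those of DMSO and kynurenine did so in part (0.3226, 0.2344 and 0.0959, against -0.2759 to 0.1087 for their differently numbered pairs). The labels do not say what a shared number means, so no block was used in the main fit.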

Additional observations from a re-analysis of the deposited data

How the results depend on the processing

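Of 61 calls of a member in the 6 comparisons, 39 held in all 20 alternatives and 22 were lost in at least 1. Among results without a call, 133 stayed so and 22 gained one in at least 1 setting. Held against DMSO were GPI, ENO1 and HIF1A with TCDD, SLC2A1 with kynurenine, and 10 of 16 with CH223191.

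Leaving out 1 library at a time gave 4 to 9 members with TCDD against DMSO (4 without TCDD replicate 3) and 4 to 8 for TCDD against kynurenine, and 11 to 17 with CH223191. All genes called ranged from 805 to 1912 with TCDD against DMSO (805 without TCDD 3), from 30 to 44 with kynurenine, and from 576 to 1323 between TCDD and kynurenine. With kynurenine all genes called were 65 without a low-count filter, 26 with only the 2 groups compared and 68 with GC and length trends removed. DESeq2 called 11 members between TCDD and kynurenine, against 7.

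GAPDH between TCDD and CH223191 turned from a log2 fold change of -0.08 to 0.0018 with GC and length trends removed (adjusted p = 0.964). The cause was not tested. Library totals alone moved the members' median with CH223191 from -0.02 to 0.0096. With a replicate block 7, 1 and 16 members were called with TCDD, kynurenine and CH223191 against DMSO, and 1537, 38 and 4366 genes in all, so it changed no count by over 1.5 times. Depth limits CA9, BNIP3 and ALDOC.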

Other observations

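Over the 36 tested members the first principal component of log2 CPM, with 46.3% of the variance, put the 3 CH223191 libraries at 1.04 to 1.29 and the other 9 at -0.67 to -0.03. The second, with 20.2%, ran from -0.74 to 1.18 and set DMSO replicate 2 and TCDD replicate 1 at its ends, so no treatment was separated there. On the first, the DMSO libraries (-0.58 to -0.48) and the TCDD libraries (-0.35 to -0.03) did not overlap, and the kynurenine libraries spread over both (-0.67 to -0.08). Members with few reads are part of both components. BNIP3 had 16 reads in DMSO replicate 2 and 3 in TCDD replicate 1, the ends of the second. ANKRD37 had 19 reads in TCDD replicate 1, 23 in Kyn replicate 2 and 14 in CH223191 replicate 3. Each was its group's lowest, in the library highest on the first component. How far such low counts set these positions was not tested. The components describe 12 libraries.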
